A study of Mus musculus with 6 samples.

Results

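Of the 6374 ATF4 peaks listed for leucine-starved WT mouse embryonic fibroblasts (MEFs), 424 were strong and stood at sites where no other condition had a peak. They were selected on the readout itself, by 2 values: a peak score of 100 or more in the WT -Leu list, and a centre more than 300 bp from every peak centre in the lists of fed WT cells and of GCN2 KO cells with or without leucine. A peak of another list within 300 bp is called a partner here. Of the 202 strong WT -Leu peaks with a partner, 191 had one in fed WT cells. The leucine-fed knockout list held a partner for 66 of them, and the starved knockout list for 40. With fed WT cells as the only partner list, the rule chose 435 peaks instead of 424. Contrasts between strong peaks with and without a partner therefore mostly compare sites listed and not listed in fed WT cells. The 4 lists together held 17462 peaks. Among the 626 WT -Leu peaks that reached the score, 67.7% had no partner, beside 94.0% of WT -Leu peaks of any score. The score and the lack of a partner describe how the peaks were chosen, and where they are given below they are descriptions only. What follows on sequence, position and neighbouring genes was not used in choosing them, except that the rule bears on any overlap with the other lists.

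The data came from chromatin immunoprecipitation with an ATF4 antibody (sc-200) followed by sequencing, in WT and GCN2-/- MEFs of strain 129S6/SvEvTac kept for 24 h in complete DMEM (+Leu) or in DMEM lacking leucine (-Leu). There was 1 ChIP library per condition, made from chromatin pooled from 2 experiments, so no value below has a replicate error. The cells were primary MEFs by the study's methods, and peak lists give no check of the knockout itself. Both -Leu lists had been called against input DNA of leucine-fed cells of the same genotype. Intervals are 95% Wilson intervals for shares and 95% Newcombe intervals for differences, and they cover counting error over peaks only. The depth of the libraries is unknown, and a site without a listed peak was below the peak caller's limit, which does not show that ATF4 was absent there.

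GCN2 is the kinase that senses uncharged tRNA when an amino acid runs short. It phosphorylates eIF2alpha, which lowers general protein synthesis while favouring translation of the ATF4 mRNA. ATF4 is a bZIP transcription factor that binds DNA as a dimer, often with a C/EBP family partner, at C/EBP-ATF response elements (CAREs) that combine an ATF site with a C/EBP site. The core searched here was TGATGCAA, and TGATGNAA allows any base at position 6, counted from 1 at the 5′ end.

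The highest-scoring peaks with each form of the motif are shown first, since they carry the sequence result. Each line gives the strand on which the motif reads 5′ to 3′, with the motif in capitals and 20 reference bases on either side. The reference is GRCm38 (mm10) of strain C57BL/6J, so bases that differ in 129S6/SvEvTac cells would not appear. The first 8 have the core TGATGCAA.
Ciapin1: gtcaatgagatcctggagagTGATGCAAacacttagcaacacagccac
Paqr3: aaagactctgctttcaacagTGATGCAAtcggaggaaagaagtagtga
Herpud1: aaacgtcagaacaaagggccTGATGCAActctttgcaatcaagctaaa
Gm13498: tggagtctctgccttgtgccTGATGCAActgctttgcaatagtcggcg
4933417G07Rik: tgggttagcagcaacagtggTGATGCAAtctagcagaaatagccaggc
Sel1l: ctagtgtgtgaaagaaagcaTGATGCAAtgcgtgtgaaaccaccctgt
Eif3c: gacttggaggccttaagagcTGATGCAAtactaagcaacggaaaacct
Gm1653: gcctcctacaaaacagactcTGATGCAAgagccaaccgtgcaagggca

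These windows lay, in the same order, at chr8:94825320-94825367 (+ strand, intron 6 of 8 of Ciapin1), chr5:97108510-97108557 (- strand, intron 1 of 6 of Paqr3), chr8:94390654-94390701 (- strand, intron 3 of 7 of Herpud1) and chr2:50814216-50814263 (+ strand, intergenic). The others lay at chr3:55909485-55909532 (- strand, within the Nbea gene and an LTR element), chr12:91845587-91845634 (- strand, intron 1 of 20 of Sel1l), chr7:126565884-126565931 (+ strand, intron 2 of 20 of Eif3c) and chr3:149988000-149988047 (+ strand, intergenic). All 8 were intronic or intergenic, and none overlapped an annotated UTR.

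The next 6 are the highest-scoring peaks with A and then with T at position 6. Ciapin1 appears again because its peak held both forms.
Ciapin1: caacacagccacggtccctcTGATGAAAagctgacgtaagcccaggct
Dnm2: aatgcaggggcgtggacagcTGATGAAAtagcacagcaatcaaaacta
Cln8: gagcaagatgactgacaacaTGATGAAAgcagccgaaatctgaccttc
Trp53inp1: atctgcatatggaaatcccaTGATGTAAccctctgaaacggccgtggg
Edem1: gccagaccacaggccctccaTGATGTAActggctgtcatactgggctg
4930563F08Rik: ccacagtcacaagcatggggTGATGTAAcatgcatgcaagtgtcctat

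They lay at chr8:94825356-94825403 (+ strand), chr9:21439595-21439642 (- strand, intron 1 of 19 of Dnm2), chr8:14850606-14850653 (- strand, intergenic), chr4:11147863-11147910 (+ strand, intergenic), chr6:108843889-108843936 (+ strand, intron 4 of 11 of Edem1) and chr5:131797200-131797247 (- strand, in an intron of Auts2). Edem1 and Cln8 were printed by the rule on sequences and are no part of the rule on genes.

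The score ran from 100 to 2628 over the 424 peaks, with a median of 169 and quartiles of 122.8 and 250.2. The 202 strong peaks with a partner had a median of 362 and reached 2515. The highest score of the whole WT -Leu list, 2628, belonged to a peak without a partner, in an intron of Ciapin1 (anamorsin, a factor in cytosolic iron-sulfur cluster assembly), 13002 bp from its transcription start site (TSS). The nearest peak centre in another list was at 73687 bp for WT +Leu, at 108160 bp for GCN2 KO +Leu and at 214507 bp for GCN2 KO -Leu. Among the 10 highest scores of the list, Ciapin1 and Paqr3 (1441, a Golgi membrane protein) were the sites without a partner.

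**Figure D1:**
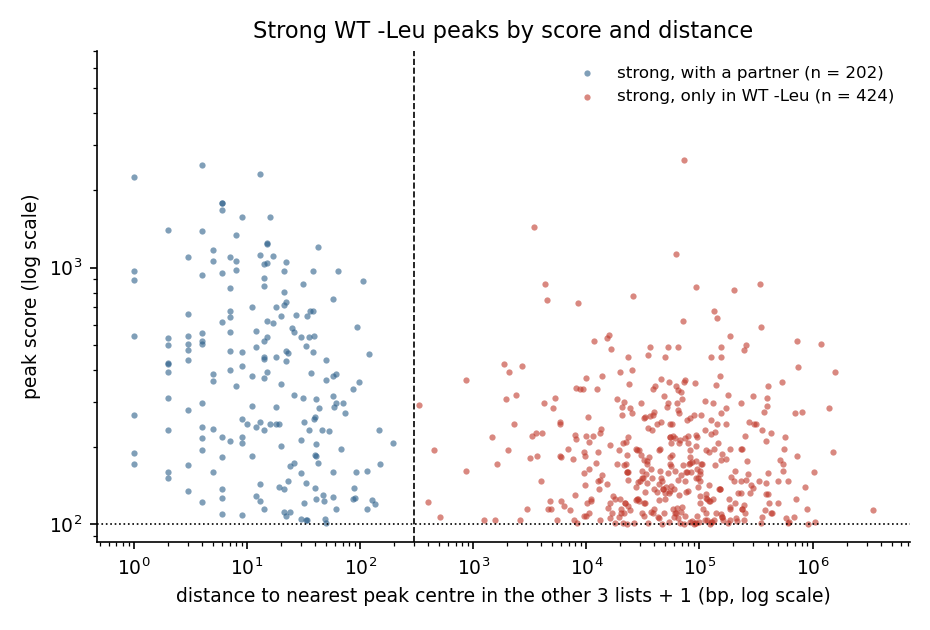
Score of each of the 626 strong WT -Leu peaks against the distance from its centre to the nearest peak centre in the other 3 lists, plus 1 bp, both on log scales; the dashed line marks the 300 bp limit and the dotted line the score limit. The 202 peaks with a partner all lay within 194 bp of it, and the 424 without one lay mostly beyond 10 kb, so few sites stood near the limit.

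The distance limit separated the strong peaks with little ambiguity. The farthest partner was 194 bp away, and 6 of the 424 had another list's peak within 1000 bp, as the plot of score against distance shows. These 6 were named for Rn45s (score 292, 329 bp from the nearest other peak), Wnt5a (122, 400 bp), Coasy (194, 452 bp), Slc38a7 (107, 509 bp), Abca4 (364, 862 bp) and Eri1 (162, 863 bp); all but Slc38a7 are named here after their values were seen. The Rn45s peak lies in the ribosomal RNA repeat unit, which had peaks in all 3 other lists within 445 bp, and 1 further peak, named for Pisd-ps3, lay on an unplaced contig. The median distance to the nearest peak of another list was 58020 bp. At the score limit, 6 peaks had a score of 100, among them those named for Rchy1, Nfkbiz and Tldc1, and 11 were 1 above it, among them those named for Cebpd and Cd36. Just outside, 4 peaks without a partner had 98, Ptbp1 among them, and 5 had 99, Ciart among them.

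The same rule was applied to each list in turn, as a description of the selection. In WT cells the count was 1 of 90 strong peaks with leucine and 424 of 626 without it. In GCN2 KO cells it was 2 of 32 with leucine and 0 of 13 without it. The exception in WT +Leu had a score of 102 near Mir302b. Those in GCN2 KO +Leu were named for Rn45s (120) and Pisd-ps3 (108), at 2658 and -3485 bp from the TSS. The unpartnered WT -Leu peaks of the same names were at other positions, 5633 and 39782 bp from the TSS. Scores are not scaled between lists, and the highest scores were 1499, 2628, 391 and 353 in the same order, so the counts depend on the score each library could reach. Taking the 90 strongest peaks of each WT list instead, 1 of the +Leu peaks and 20 of the -Leu peaks were in their list only. With the 500 strongest, the shares were 62.8% (58.5 to 66.9) in +Leu and 63.0% (58.7 to 67.1) in -Leu, a comparison chosen after the data were seen. With the 1000 strongest they were 79.1% (76.5 to 81.5) in +Leu and 76.2% (73.5 to 78.7) in -Leu. Partners were still sought in the full lists, which held 4850 peaks for WT +Leu and 6374 for WT -Leu, so the comparison is not fully even.

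The peaks without a partner lay away from genes' starts more often than those with one. Of the 424, 182 were intergenic, 180 intronic and 33 at promoters by the list's annotation; 9 lay in exons, 8 in 3′ UTRs, 6 at transcription ends, 4 in non-coding transcripts and 2 in 5′ UTRs. Within 5 kb of a TSS lay 92 of 424, or 21.7% (18.04 to 25.9). The share was 44.6% (37.9 to 51.5) of the strong peaks with a partner, a difference of -22.9 percentage points (-30.7 to -15.0). It was 17.1% (16.1 to 18.1) of the 5566 weaker WT -Leu peaks without a partner, a difference of 4.59 points (0.797 to 8.87). The 1 kb around a TSS held 10.8% of the strong peaks without a partner, 31.2% of those with one and 5.61% of the weaker peaks. Median distances to a TSS were 27300, 8212 and 24350 bp in the same order.

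**Figure D2:**
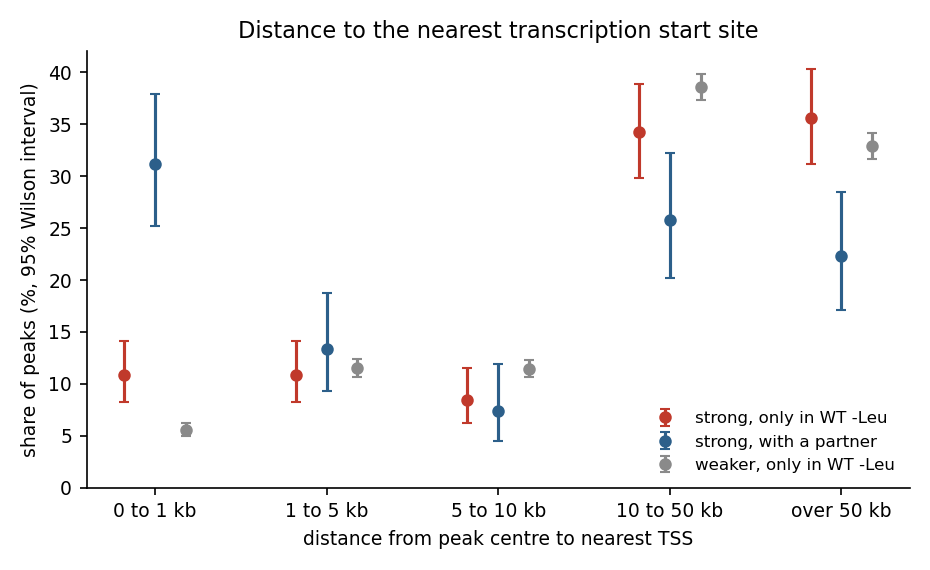
Share of peaks, in percent, in 5 classes of distance to the nearest TSS, for the 424 strong peaks found only in WT -Leu, the 202 strong peaks with a partner and the 5566 weaker peaks found only in WT -Leu; bars are 95% Wilson intervals. Within 1 kb the partnered peaks reach 31.2% against 10.8% for those without a partner, and beyond 50 kb the order turns, with 22.3% against 35.6%.

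In the list of endoplasmic reticulum (ER) and unfolded protein response genes, 3 of 31 had a strong unpartnered peak within 5 kb. Herpud1 encodes an ER membrane protein of ER-associated degradation, and its site scored 866, in an intron 4207 bp from the TSS. Herpud1 also had a promoter peak, and that one was listed in 3 of the 4 libraries: its score was 105 with and 379 without leucine in WT cells and 28 with leucine in GCN2 KO cells, and no peak was listed there for GCN2 KO -Leu. Herpud1 was the 1 gene with both a partnered and an unpartnered strong peak within 5 kb.

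Sel1l, an adaptor of the same degradation pathway, had a peak of score 542 in its first intron, 3550 bp from the TSS, and no peak of another list within 185991 bp. Hspa5, the ER chaperone BiP, had a score of 135 at 1940 bp upstream, within a B1 element. Edem1, which hands misfolded glycoproteins to degradation and is named after its value was seen, had a score of 677 in an intron 15269 bp from its TSS. Sel1l, Hspa5 and Edem1 were not the nearest gene of a peak in another list, and Herpud1 was. Of all 409 genes of the strong unpartnered peaks, 50.6% were the nearest gene of such a peak. Nothing is read from so few genes.

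Ppp1r15a (GADD34) encodes the stress-induced subunit that directs protein phosphatase 1 to eIF2alpha. Its strong peak had a score of 1129, the third highest of the 424, at the 3′ end of the gene 2766 bp from the TSS, where the Tulp2 gene overlaps it in the GENCODE M21 annotation. A weaker WT -Leu peak of score 76 lay 21 bp from the TSS. Neither site had a peak in the other 3 lists, where no peak was assigned to Ppp1r15a at all.

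Among amino acid genes, Aldh18a1 and Pycr1, which encode enzymes of proline synthesis, had promoter peaks of score 179 and 118, and Got1, the cytosolic aspartate aminotransferase, had one of 152. Their centres lay 51 bp downstream, 178 bp upstream and 81 bp upstream of the TSS. Slc3a2, the heavy chain shared by several amino acid exchangers, had a score of 347 in its first intron, 871 bp from the TSS. Slc38a7, a lysosomal glutamine and asparagine transporter, had 107 at 1030 bp. Of these 5 genes only Slc38a7 had a peak elsewhere, with 51 and 22 in WT +Leu, the nearer one 509 bp away. None of the 5 had a peak in either GCN2 KO list. Among all 409 genes of the strong unpartnered peaks, 22.2% were nearest to a peak of the leucine-fed knockout list. For the leucine-starved knockout list the share was 17.6%. The rule also left out sites with a partner in those lists, so nothing is read from these 5 genes.

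The Got1 and Pycr1 promoter peaks held the core and are shown as the amino acid genes with a match. The windows lay at chr19:43524680-43524727 (+ strand) and chr11:120643824-120643871 (- strand), with the motif centred 18 bp and 0 bp from the peak centre.
Got1: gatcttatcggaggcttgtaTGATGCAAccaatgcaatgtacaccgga
Pycr1: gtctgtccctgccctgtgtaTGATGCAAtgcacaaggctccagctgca

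Other stress genes near a strong unpartnered peak were Sqstm1, Gdf15, Gpx4 and Trp53inp1. Sqstm1 (p62), an autophagy receptor, had a score of 545 at 1305 bp upstream, in a B4 SINE that GENCODE M21 places within Mgat4b. Gdf15, a secreted stress hormone, had 413 in its only intron, 640 bp from the TSS, and a separate peak of 25 at 2066 bp upstream in WT +Leu. Gpx4, which reduces lipid peroxides, had 227 in its first exon. Trp53inp1, a p53 target linked to autophagy and cell death, had 863 at 8571 bp upstream.

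Several of the highest scores lay near genes with other roles. The peaks named for Mrps28 (837, a mitochondrial ribosomal protein), Gm13498 (822) and Dhrs3 (772, a retinaldehyde reductase) were more than 50 kb from a TSS. Dnm2, a dynamin of membrane fission, had 730 in its first intron. The peak assigned to Lgals6 (745) lay within the closely related Lgals4 gene in GENCODE M21, so the assignment between these galectin genes is uncertain. Within 5 kb of a TSS the list went on with Cxadr (586, a cell adhesion receptor), Eif3c (518, a translation initiation subunit), Slc19a2 (489, a thiamine transporter) and Tas2r143 (450, a taste receptor). More than 50 kb away it went on with 4933417G07Rik (637), Trat1 (504), Gm1653 (501), 4930563F08Rik (481), Ust (479), Irf8 (456) and Nedd9 (450). Distance to a TSS is an assignment to the nearest start and does not show which gene a site acts on.

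The 14 gene lists chosen for this tissue and treatment, with 431 symbols, were unevenly met. Within 5 kb of a TSS, 12 listed genes had a strong unpartnered peak, of 92 genes that had one, and 45 had a strong partnered peak, of 87. The aminoacyl-tRNA synthetase list, whose enzymes charge tRNAs, had 0 of 58 against 14 with a partnered peak, Aars, Gars and Wars among them, together with Xpot, the tRNA exportin. Amino acid and one-carbon enzymes had 3 of 26 against 10, among the latter Asns, Psat1 and Shmt2. Regulators of the integrated stress response had 1 of 24 against 8, including Chac1, Ddit3 and Trib3. Amino acid transporters had 2 of 22 against 4, and bZIP factors 0 of 52 against 6. Unpartnered peaks were the more numerous for ER and unfolded protein response genes, with 3 of 31 against 1, and for autophagy and lysosome genes, with 1 of 23 against 0. The lists for glutathione and redox and for secreted factors had 1 gene on either side, and those for cell death, extracellular matrix, and glycolysis and hypoxia had 0. Chromatin and mRNA control genes had 0 against 2 (Arl14ep and Kdm6b), and the mTORC1 list had 0 against 1 (Sesn2). The lists hold known ATF4 targets, so these counts are descriptions and not tests.

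Beyond 5 kb, 11 further listed genes were nearest to a strong unpartnered peak, and those named here were chosen after their values were seen. They included Prrx1 (271, 21445 bp from the TSS), a transcription factor of mesenchymal cells, and Aldoa (180, 8182 bp upstream), a glycolytic enzyme. Rps6kb1, the S6 kinase downstream of mTORC1, had 158 at 27981 bp, and Hif1a had 130 at 128416 bp upstream. Cebpd, a C/EBP factor, had a peak at the score limit, 8828 bp upstream.

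The 424 peaks were assigned to 409 genes. Of these, 141 (34.5%, 30.0 to 39.2) were also the nearest gene of some WT +Leu peak, 91 (22.2%, 18.5 to 26.5) of a GCN2 KO +Leu peak and 72 (17.6%, 14.2 to 21.6) of a GCN2 KO -Leu peak. For the 4225 genes of the weaker unpartnered peaks the shares were 31.8%, 25.6% and 20.2%, and the differences of 2.71 (-1.95 to 7.64), -3.36 (-7.35 to 1.11) and -2.61 points (-6.21 to 1.55) had intervals that included 0. Near TSSs the overlap was counted without the share over all genes beside it, so it is not read as small or large. The rule also bears on it, since sites with a partner were left out. Of the 92 genes with a strong unpartnered peak within 5 kb, 6 had a WT +Leu peak within 5 kb, 1 a GCN2 KO +Leu peak and 1 a GCN2 KO -Leu peak. No gene had 3 such peaks and 15 had 2, the highest pair being that of Paqr3 (1441 and 286, 17171 bp apart). No strong unpartnered peak lay within 5000 bp of another.

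The CARE core was found in fewer of the unpartnered strong peaks than of the partnered ones. Within 50 bp of the centre, on either strand, TGATGCAA was present in 116 of 423 peaks on assembled chromosomes, or 27.4% (23.4 to 31.9), and in 121 of 200 partnered peaks, or 60.5% (53.6 to 67.0). The difference was -33.1 points (-40.7 to -24.9). In the weaker unpartnered peaks the share was 3.42% (2.97 to 3.93), 24.0 points lower than in the strong ones (19.9 to 28.5). In 846 windows of the same length 1 kb to either side of the 423 peaks it was 0.236% (0.0649 to 0.858). The strong peaks found only in WT -Leu therefore held the core more often than their own surroundings and less often than strong sites with a peak in another list.

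**Figure D3:**
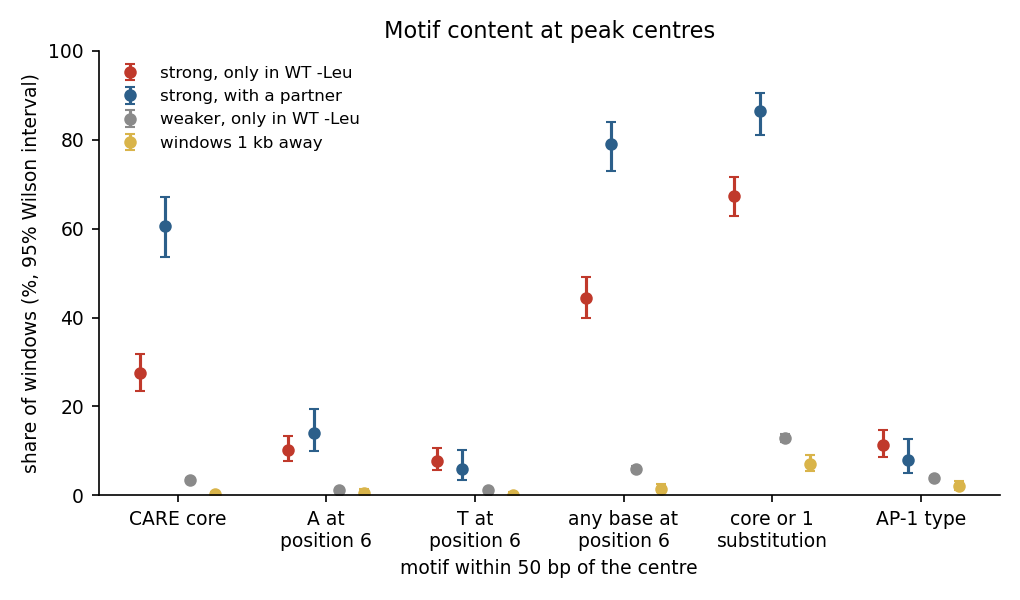
Share of windows within 50 bp of the centre that held each motif, in percent with 95% Wilson intervals, for strong peaks found only in WT -Leu (n = 423), strong peaks with a partner (n = 200), weaker peaks found only in WT -Leu (n = 5562) and windows 1 kb from the first group (n = 846). The core is at 27.4% against 60.5% with a partner, the forms with A or T at position 6 have overlapping intervals in both strong groups, and the windows 1 kb away stay at or below 7.09%.

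For the forms with A or T at position 6, the interval of the difference between the strong groups included 0. TGATGAAA was present in 10.2% (7.64 to 13.4) of the unpartnered and 14.0% (9.87 to 19.5) of the partnered strong peaks, with a difference of -3.83 points (-9.88 to 1.42). TGATGTAA was in 7.80% and 6.0%, with a difference of 1.80 points (-2.93 to 5.69). TGATGGAA was in 0 of 423 peaks (Wilson interval up to 0.900%). TGATGNAA as a whole was in 44.4% (39.8 to 49.2) against 79.0% (72.8 to 84.1), and in 5.95% of the weaker peaks and 1.42% of the windows 1 kb away. Over all 32851 RefSeq promoters of 300 bases, 3.97% held TGATGNAA anywhere, whereas 55.6% of the strong unpartnered peaks did over their whole 301 bp. Promoters are an unlike background for these peaks, since 33 of the 424 lay at promoters, and base composition was not matched.

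Motifs of related bZIP dimers were rarer. The AP-1 motif TGANTCA was in 11.3% (8.67 to 14.7) of the strong unpartnered peaks, 8.0% of the partnered ones (difference 3.35 points, -1.98 to 7.88), 3.81% of the weaker ones and 2.01% of the windows 1 kb away. Of the 48 peaks with it, 27 had no TGATGNAA. The palindromic CRE, TGACGTCA, and the palindromic C/EBP site, TTGCGCAA, were each in 0 of 423. The core followed by T, TGATGCAAT, was in 11.1% against 23.5%.

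The core was also counted within bands of peak score, and the part of the score in the gap was not tested. Within each of 6 bands of score the share was lower without a partner than with one. It was 26.6% (n = 94) against 33.3% (n = 12) at scores of 100 to 119, 26.2% against 61.9% at 120 to 149, and 30.3% against 50.0% at 150 to 199. It was 22.4% against 62.2% at 200 to 299, 30.0% against 73.7% at 300 to 499, and 38.1% (n = 21) against 59.7% (n = 72) at 500 or more. The interval of the difference lay below 0 in 3 of the 6 bands, at 120 to 149 (-54.9 to -12.3), 200 to 299 (-55.5 to -20.9) and 300 to 499 (-59.4 to -22.8). It included 0 in the others, which had 12, 20 and 72 partnered peaks. Among unpartnered peaks the median score was 164 with the core and 171 without it.

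**Figure D4:**
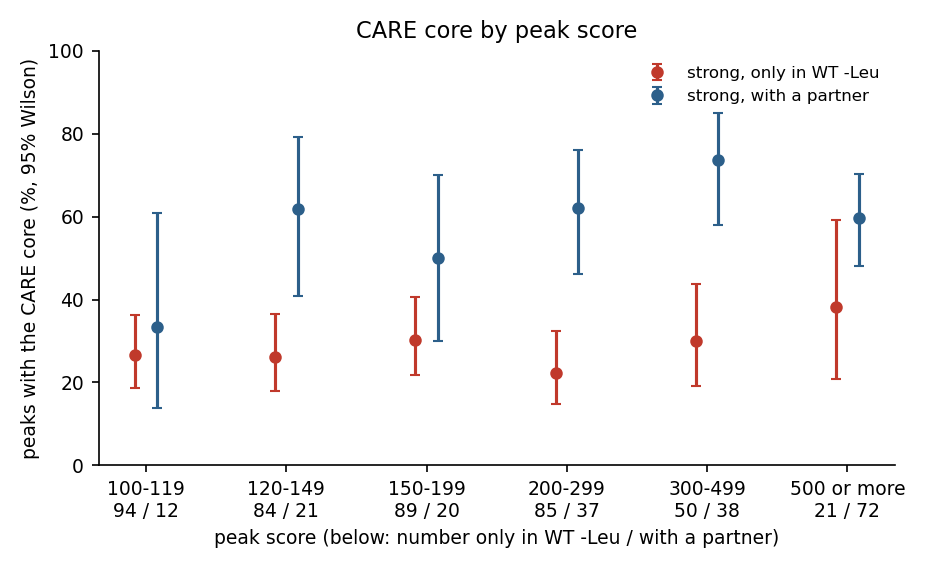
Share of peaks with the CARE core within 50 bp of the centre, in percent with 95% Wilson intervals, by band of peak score, for strong peaks found only in WT -Leu and strong peaks with a partner; the number of each is under the band. The unpartnered peaks stay between 22.4% and 38.1% in all bands, below the partnered peaks, which run from 33.3% to 73.7%.

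The gap was present both near genes' starts and away from them. Within 5 kb of a TSS the core was in 28.3% (20.1 to 38.2) of the unpartnered and 66.7% (56.4 to 75.6) of the partnered peaks, a difference of -38.4 points (-50.5 to -24.1). Farther away it was in 27.2% (22.7 to 32.2) and 55.5% (46.1 to 64.4), a difference of -28.3 points (-38.3 to -17.7). The GC content of the windows was lower without a partner, with medians of 48.8% and 52.8%, and its part in the motif shares was not tested. The score bands and the split by distance were chosen after the data were seen.

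Where the core was present it also lay less tightly at the centre. Over the whole peak, 139 unpartnered peaks held it, at a median of 14.5 bp from the centre, with quartiles of 5.50 and 34.0 bp. In 129 partnered peaks the median was 9.50 bp, with quartiles of 5.50 and 17.5 bp. Within 20 bp of the centre lay 60.4% (52.1 to 68.2) of the former and 78.3% (70.4 to 84.5) of the latter. The strong peaks without and with a partner differed in score, with medians of 169 and 362. Offsets were not compared between peaks of like score, so the part of the score was not tested.

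Many strong unpartnered peaks without TGATGNAA held a form of the core with 1 other substitution, a search added after the data were seen. Of 188 peaks with no TGATGNAA anywhere in their 301 bp, 88 (46.8%, 39.8 to 53.9) had such a form within 50 bp of the centre, against 29 of 376 windows 1 kb away (7.71%, 5.42 to 10.9). The share was 14 of 31 (45.2%, 29.2 to 62.2) in partnered strong peaks without TGATGNAA, and 7.38% in the weaker unpartnered ones. Position 6 is left out by construction, and most of the other substitutions were in the first 4 bases. Those at positions 3 and 4 were found in 29 peaks each (15.4%), those at positions 1 and 2 in 15 and 13, and those at positions 5, 7 and 8 in 2, 5 and 2, beside 5, 3 and 4 of the 376 windows 1 kb away. Counting the core and every form with 1 substitution, 67.4% (62.8 to 71.7) of all 423 had a match, beside 86.5% of the partnered peaks, 12.8% of the weaker ones and 7.09% of the windows 1 kb away.

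The highest-scoring peaks with TGTTGCAA (Mrps28 and Dhrs3) and with TGACGCAA (Trat1), among peaks without TGATGNAA, are shown as examples of words chosen after their counts were seen, together with the Slc19a2 peak, where the capitals mark the word TGATGACA.
Mrps28: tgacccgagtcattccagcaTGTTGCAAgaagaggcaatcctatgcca
Dhrs3: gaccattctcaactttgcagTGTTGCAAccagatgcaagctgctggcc
Trat1: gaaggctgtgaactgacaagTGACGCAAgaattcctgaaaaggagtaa
Slc19a2: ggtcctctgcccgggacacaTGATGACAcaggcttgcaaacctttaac

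These windows lay at chr3:8873157-8873204 (+ strand, intron 2 of 2 of Mrps28, within a SINE), chr4:144949934-144949981 (- strand, intergenic), chr16:48709893-48709940 (+ strand, intergenic) and chr1:164248536-164248583 (- strand, 467 bp upstream of the Slc19a2 TSS). TGTTGCAA was in 21 of the 423 peaks (4.96%) and 0.355% of the windows 1 kb away, and TGACGCAA in 14 (3.31%) and 0 of 846. Neither a form with 1 substitution nor an AP-1 motif was within 50 bp of the centre in 90 of the 188 peaks. The Ppp1r15a, Cxadr, Sqstm1 and Slc19a2 peaks had no form of the core with 1 substitution, which says only that these letters were not in the window.

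The core's own last 4 bases, GCAA, recurred at a fixed spacing after the motif, as in the lines for Ciapin1, Herpud1, Gm13498, Eif3c and Dnm2 above. This was counted after those sequences had been seen. Of the 188 strong unpartnered peaks with TGATGNAA near the centre, 36 (19.1%, 14.2 to 25.4) had GCAA starting 6 or 7 bases after the motif on the same strand. In 23 peaks the gap was 6 bases and in 13 it was 7. At 16 bases there were 11 peaks (5.85%), a separate set from the 36, and each of the other spacings from 0 to 24 held at most 3. Of the 36 peaks, 5 were centred in an annotated repeat, each of a different element, and 4 lay within 5 kb of a TSS.

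**Figure D5:**
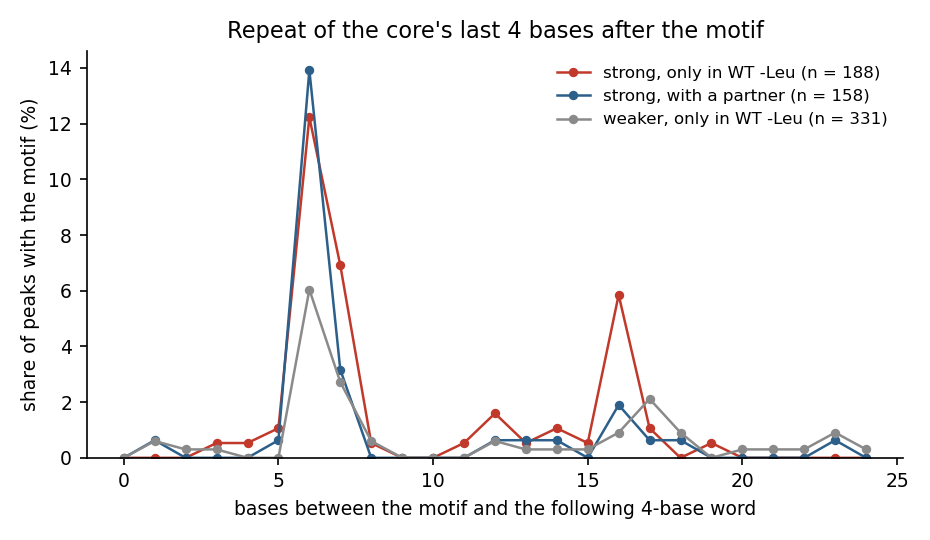
Share of peaks with the motif (any base at position 6), in percent, in which the core's last 4 bases started again on the same strand after a given number of bases, for the 188 strong peaks found only in WT -Leu, 158 strong peaks with a partner and 331 weaker peaks found only in WT -Leu. All 3 groups rise at 6 bases, to 12.2%, 13.9% and 6.04%. At 16 bases the shares are 5.85%, 1.90% and 0.906% in the same order.

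The same spacing was found in partnered peaks, and an inverted arrangement was counted as well. GCAA at 6 or 7 bases was in 27 of 158 partnered peaks with TGATGNAA (17.1%, 12.02 to 23.7), a difference of 2.06 points (-6.24 to 10.1). It was in 8.76% of 331 weaker unpartnered peaks with the motif, 10.4 points lower than in the strong ones (4.27 to 17.1). At 16 bases GCAA was in 3 of 158 partnered peaks (1.90%, 0.648 to 5.43) and 0.906% of the weaker ones. The interval of the partnered peaks overlapped that of the strong unpartnered ones (3.30 to 10.2), and this spacing was picked after the counts were seen. The inverse word TTGC was described at 12 or 13 bases after the motif, the spacings from 0 to 24 at which the partnered peaks held it most often, so its contrast is a description and not a test. It was in 4 of 188 strong unpartnered peaks (2.13%, 0.830 to 5.34) and 21 of 158 partnered ones (13.3%, 8.86 to 19.5). In the weaker peaks it was in 1.81%.

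Repeats held 54 of the 424 peak centres, or 12.7% (9.89 to 16.2). The share was 10.9% (7.30 to 15.9) of the partnered strong peaks, a difference of 1.84 points (-3.95 to 6.87), and 23.2% (22.1 to 24.4) of the weaker unpartnered ones, a difference of -10.5 points (-13.6 to -6.82). By class there were 22 in LTR elements, 18 in SINEs, 8 in LINEs and 5 in DNA transposons. The core was in 17 of 53 peaks inside repeats (32.1%, 21.1 to 45.5) and 99 of 370 outside them (26.8%, 22.5 to 31.5), with overlapping intervals. It was in 6 of 22 LTR peaks, 4 of 8 LINE peaks and 2 of 17 SINE peaks.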

How the data were processed

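ATF4 ChIP-seq was available for 4 libraries, 1 per condition; the 2 input libraries were not analysed here. Per the labels and the study's methods, the authors aligned reads with BWA 0.7.12 to mm10, called peaks with MACS2 2.1.0 at a false discovery rate of 0.05 and annotated 301 bp windows with HOMER 4.7. The deposited score is the peak caller's, on an unstated scale and not scaled between libraries, so no test between conditions was possible. The deposited GC and CpG contents are fractions; GC of every window on an assembled chromosome was within 2e-06 of that of the reference used here (GRCm38), which was taken as the same build. Depth is unknown.

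Partners, motifs and distances were computed with Python 3.11.15, pandas 2.3.3 and pysam 0.24.0, and both steps recovered partners and motifs planted in simulated peaks. Peaks, gene lists and motifs were chosen with earlier results of these data known. Genes named were those of the 10 highest scores in all, within 5 kb and beyond 50 kb of a TSS, listed genes within 5 kb, and peaks at the score limit; others are said to be chosen after their values were seen. GENCODE M21 gave overlapping genes.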

Additional observations from a re-analysis of the deposited data

Results flagged for a closer look

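The selection rule applied to each list gave counts that moved oppositely with leucine removal in the 2 genotypes. Strong peaks found in a single list were 423 more in WT -Leu than in WT +Leu (424 against 1), and the difference in GCN2 KO MEFs, -Leu minus +Leu, was -2 (0 against 2). The WT -Leu count is the selection itself, the 2 GCN2 KO peaks were named for Rn45s and Pisd-ps3, and only 32 and 13 GCN2 KO peaks reached the score. The difference was not tested, and no direction is read from it.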

How the results depend on the processing

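Of 59 alternative settings of 7 results, 44 left the value within its interval (or a count within 1.5 times). Only the difference in TGATGCAA could change sign, since the other results are counts or shares, and it did not. Of the alternatives, 2 were added after the data were seen, namely scores under 300 only and peaks beyond 5 kb only. A score limit of 50, 150 or 200 gave 1022, 245 or 156 peaks. At a limit of 50 the share with TGATGCAA was 22.0%, that with TGATGNAA 34.5% and that in repeats 16.6%; the repeat share was 9.39% at 150 and 9.62% at 200, and the share within 5 kb of a TSS was 26.3% at 200. Motif windows of 25 and 150 bp gave 20.8% and 32.9% for TGATGCAA, and 33.3% and 55.6% for TGATGNAA. Within 1 kb and 10 kb of a TSS the shares were 10.8% and 30.2%. The difference in TGATGCAA between unpartnered and partnered strong peaks stayed between -37.0 and -28.3 points. No paired analysis was possible because each condition had 1 library. Without replicates or depth, neither a peak's score nor its absence from a list has an error, and a site absent from a list may lie just under its limit.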

Other observations

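As seen after the counts were made, all 5 strong unpartnered peaks centred in DNA transposons had the CARE core within 50 bp of the centre. They were assigned to Zfr (372, MER20B), Arid5a (266, MER117), 3110009F21Rik (183, Tigger7), Mir211 (129, MER2) and Pparg (126, Tigger7), elements of 4 kinds.

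The word TGATTGCA, which has 1 more T before GCA than the core and lacks its last A, was counted too. It was in 22 of 423 strong unpartnered peaks (5.20%, 3.46 to 7.75), 3.0% of the partnered ones, 0.773% of the weaker ones and 1 of 846 windows 1 kb away. It was chosen after its count was seen.

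Bases next to the core were uneven in both strong groups. Before it, T stood in 5 of 118 occurrences in unpartnered peaks (4.24%, 1.82 to 9.54) and 0 of 127 in partnered ones, and C in 44.1% and 55.1%. After it, A stood in 6.78% and 3.94%, and T in 39.8% and 37.8%.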
